A study of Mus musculus with 2 samples.

Results

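Of the 18193 genes annotated on the array, 10 whose products restrain or position the SMAD proteins were followed in platelets of mice with and without Smad4. They are the corepressors Ski, Skil, Tgif1 and Tgif2, the ubiquitin ligases Smurf1, Smurf2 and Trim33, the phosphatase Ppm1a and the membrane anchors Zfyve9 and Zfyve16. The genes were chosen by name, and all 25 probe sets that the array annotation assigns to 1 of these symbols alone were taken. A probe set is the group of short probes that together give 1 signal for a transcript.

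Platelets were washed from C57BL/6 mice of 2 genotypes. The control mice (Smad4 f/f) carried a floxed Smad4 gene, that is, one with loxP sites on either side. The Smad4 −/− mice carried the same floxed gene and a Cre recombinase under the PF4 promoter, which acts in megakaryocytes. The sources used here do not say whether the control mice carried Cre, how old the mice were, or whether RNA was pooled. The design states 6 mice for each genotype, but each is represented by 1 array. No test was therefore possible, every value below compares 2 arrays, and their number limits the precision. Total RNA was measured, so fewer cells that carry a transcript and less of it per cell cannot be told apart.

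TGF-beta, activin and BMP receptors phosphorylate receptor-regulated SMADs, which join Smad4 and act on genes in the nucleus. The 10 genes act at different points of this route. Anchors hold SMADs near receptors on early endosomes, the phosphatase removes the activating phosphates, ubiquitin ligases mark SMADs and receptors for degradation or break up their complexes, and corepressors bring histone deacetylases to SMAD-bound genes. Platelets have no nucleus, and their mRNA was made in the megakaryocyte.

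Skil was the single gene of this group past 2-fold, 3.43-fold higher in Smad4 −/−. The corepressors Ski and Tgif2, by their probe sets of highest signal, read lower in Smad4 −/− but within 2-fold. By their probe sets of highest signal, the ligases Smurf1, Smurf2 and Trim33 and the phosphatase Ppm1a were nearly the same on both arrays. For Ppm1a, however, 6 of its 7 measured probe sets read lower in Smad4 −/−, all within 2-fold. Tgif1, Zfyve9 and Zfyve16 lay below the signal floor on both arrays and have no ratio. The floor, a linear signal of 145 or a log2 signal of 7.18, is the 60th percentile of the signals on the Smad4 f/f array, the higher of the 2 arrays, and a probe set was taken as measured where its signal reached the floor on 1 array or both. Of the 25 probe sets 17 were measured, all of them on both arrays, so that no ratio of a measured member is a bound.

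**Figure D1:**
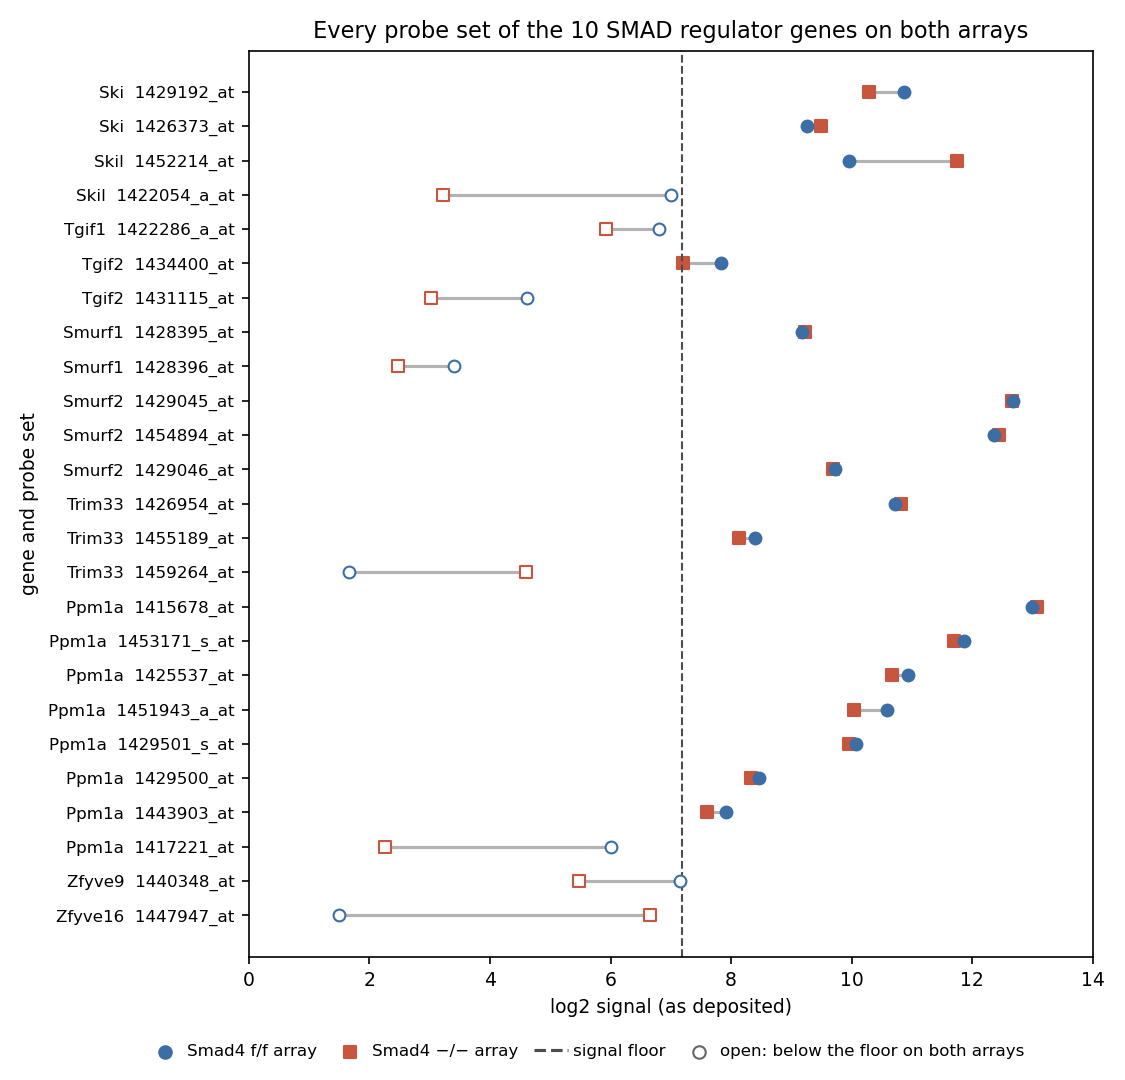
Log2 signal (horizontal axis, as deposited) of each of the 25 probe sets of the 10 genes on the Smad4 f/f array (circles) and the Smad4 −/− array (squares), 1 array each. Filled symbols mark the 17 probe sets that reached the floor (dashed line, 7.18), and among them the widest gap is that of Skil, whose other probe set (open) lies below the floor on both arrays.

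Of the 7 measured genes, 1 was higher in Smad4 −/− by 2-fold or more and 0 were lower by as much. Over all 11089 measured genes these shares were 3.42% and 3.58%. Among the 17 measured probe sets the counts were 1 and 0, against 3.35% and 3.5% of all 18099 measured probe sets with 1 gene symbol. The median log2 ratio (Smad4 −/− over Smad4 f/f) of the 7 genes was 0.04, or 0.01 without Skil, beside −0.02 over all measured genes. The median size of the log2 ratio, without its sign, was 0.11 in the members and 0.33 over all measured genes. These medians use the probe set of highest signal of each gene and were not matched for signal, so no greater stability of the members is read from them. By probe set, 6 of the 17 read higher and 11 lower, and 7 of the 17 belong to Ppm1a alone.

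Skil encodes SnoN, which binds SMAD complexes and represses their target genes. It is also known in other cells as a gene that TGF-beta signalling itself switches on, closing a feedback loop. The probe set 1452214_at read 996 for Smad4 f/f and 3421 for Smad4 −/−, giving a log2 ratio of 1.78. This placed Skil at rank 30 among the 11089 measured genes, counted from the highest ratio. Among the 1225 measured probe sets whose mean log2 signal lay within 0.5 of it, 7 had a ratio at least as large in size, Skil included, and 6 of these went in the same direction.

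The second probe set of Skil, 1422054_a_at, read 128 for Smad4 f/f and 9.35 for Smad4 −/−. Both signals lie under the floor, so by the rule used here neither a fold nor a direction is read from this probe set. Whether signals under the floor keep their order was not tested. Without the floor its log2 ratio is −3.78, opposite in sign to that of the measured Skil probe set. The suffix _a_at marks probes shared by several transcripts of 1 gene, and which Skil transcripts each probe set reads was not analysed here. The difference of Skil therefore rests on 1 probe set.

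**Figure D2:**
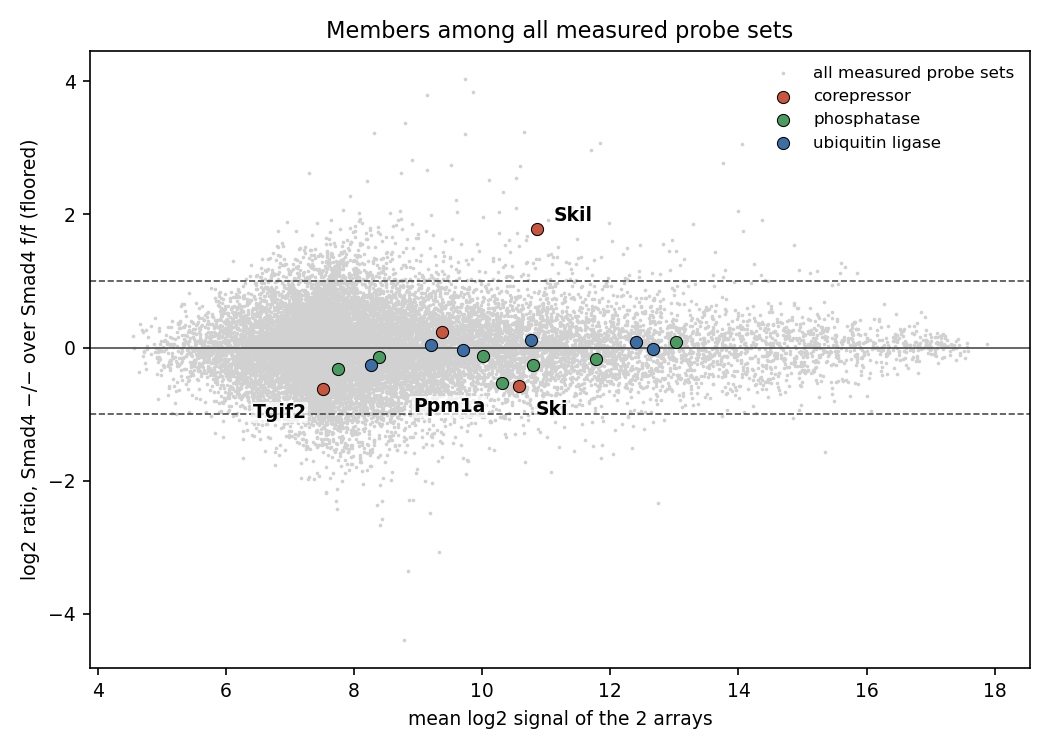
Log2 ratio of Smad4 −/− over Smad4 f/f after the floor (vertical axis) against the mean log2 signal of the 2 arrays (horizontal axis) for all 18099 measured probe sets (grey) and the 17 of the members, coloured by role. Dashed lines mark 2-fold; Skil, at 1.78, is the single member outside them, and the other 16 lie between −0.62 and 0.24.

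Ski, the founding member of the family of Skil, had 2 measured probe sets that disagreed in direction. The one of higher signal, 1429192_at, read 1862 for Smad4 f/f and 1246 for Smad4 −/−, for a log2 ratio of −0.58. The other, 1426373_at, read 611 and 720, a log2 ratio of 0.24, and the mean of both was −0.17. The direction of Ski is therefore not settled by its probe sets. Of 1309 measured probe sets of like signal, 20.5% had a ratio at least as large in size as the −0.58 of Ski. The log2 ratio of Skil exceeded that of Ski by 2.36, each read by its probe set of higher signal.

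Tgif1 and Tgif2 are homeodomain corepressors that bind SMAD2 and SMAD3. Tgif2 read 228 for Smad4 f/f and 148 for Smad4 −/− by 1434400_at, a log2 ratio of −0.62 or 1.54-fold lower. The Smad4 −/− value stands just above the floor. Of 5544 measured probe sets of like signal, 29.8% had a ratio at least as large in size. The second Tgif2 probe set read 24.4 and 8.08 and the single one of Tgif1 112 and 61.0, all of them below the floor, so no direction is read from these. At a threshold of 1.5-fold, Tgif2 was the single member lower in Smad4 −/−, by gene and by probe set. In that direction 13.3% of all measured genes and 13.2% of all measured probe sets passed. Ski, by 1429192_at, fell just short of the threshold at 1.49-fold lower. Skil remained the single member higher at that threshold, which 11.8% of genes and 11.7% of probe sets passed.

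The pattern among the corepressors was thus mixed. Skil read higher and Tgif2 lower, each by its 1 measured probe set, and Ski read either way by probe set.

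Smurf1 and Smurf2 are ubiquitin ligases of the HECT type that SMAD7 brings to TGF-beta and BMP receptors and that also mark receptor-regulated SMADs. All 3 probe sets of Smurf2 were measured. They read 6546 for Smad4 f/f and 6445 for Smad4 −/− (1429045_at), 5268 and 5601 (1454894_at), and 847 and 823 (1429046_at). Their log2 ratios of −0.02, 0.09 and −0.04 spanned a narrower range than the 7 measured probe sets of Ppm1a. The first and the last come from 1 source sequence in the annotation and are not independent readings. For 1429045_at, 96.1% of 590 measured probe sets of like signal had a ratio at least as large in size.

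Smurf1 read 580 for Smad4 f/f and 596 for Smad4 −/− by 1428395_at, for a log2 ratio of 0.04. Here 93.9% of 2359 measured probe sets of like signal had a ratio at least as large. Its second probe set, 1428396_at, which has the same source sequence, read 10.6 and 5.57, under the floor. By these probe sets the Smurf genes differed less between the arrays than most probe sets of their signal.

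SMAD3 and SMAD4 bind the short sequence CAGAC, and its occurrence upstream of the members is given here because the comparison removes Smad4. Windows of 250 bases before annotated transcription starts (RefSeq, GRCm38.p6) were searched on both strands for CAGAC, which reads GTCTG on the other strand, and for its longer palindromic form GTCTAGAC, which does not contain it. Of the 10 members 8 matched an entry, with 12 windows in all because Tgif1 has 5 starts, and Skil and Trim33 did not match. CAGAC occurred in 5 of the 12 windows, those of Smurf1, Smurf2 and 3 starts of Tgif1, and in 42.2% of all 32851 windows. GTCTAGAC occurred in 0 of the 12 and in 0.167% of all windows. Stretches of 30 bases around 1 match each of the Smurf genes and of the first Tgif1 start follow, 5′ to 3′ on the strand of the gene, with the matching letters in capitals.
Smurf1, chr5:144966005-144966034, minus strand: ggccacggtggtGTCTGtttcaaggctccc
Smurf2, chr11:106920901-106920930, minus strand: gttcggggcccaGTCTGggccgtggcgcac
Tgif1, chr17:70853716-70853745, minus strand: ttttccgccgcgCAGACagcggatagaaaa
The match shown for Smurf1 begins 192 bases before its start, that of Smurf2 203 and that of Tgif1 201 bases before theirs. A match is a description of the letters and not a binding site, and its relation to the ratios was not tested.

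Trim33, also called Tif1g or Ectodermin, is a ubiquitin ligase of Smad4 and also a partner of SMAD2 and SMAD3 that competes with Smad4 in blood cell precursors. Its probe set of highest signal, 1426954_at, read 1678 for Smad4 f/f and 1811 for Smad4 −/−, with a log2 ratio of 0.11. The second, 1455189_at, read 336 and 281, a log2 ratio of −0.26, so the direction again differed between probe sets. The third, 1459264_at, read 3.15 and 24.2 and lay below the floor on both arrays.

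Ppm1a is a phosphatase that removes the activating phosphates of receptor-regulated SMADs and also acts on stress kinases. With 8 probe sets, 7 of them measured, it is the most densely covered member. The probe set of highest signal, 1415678_at, read 8115 for Smad4 f/f and 8626 for Smad4 −/−, for a log2 ratio of 0.09. The other 6 measured probe sets all read lower in Smad4 −/−, with log2 ratios from −0.54 to −0.12. The largest of these differences was that of 1451943_a_at, which read 1532 and 1057. Across the 7 the median log2 ratio was −0.18 and the mean −0.21, so the value taken for the gene has the opposite sign to most of its probe sets.

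Several Ppm1a probe sets share their source. The probe sets 1429500_at, 1429501_s_at and 1453171_s_at come from 1 source sequence and gave −0.14, −0.12 and −0.18. The eighth, 1417221_at, shares its source sequence with 1415678_at but read 64.2 and 4.78, far below the floor, beside 8115 and 8626 for the latter. Probe sets of 1 gene can thus differ widely in signal, and a low signal of a single probe set, as for both anchors, does not show that the transcript is lacking.

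Zfyve9, known as SARA, presents SMAD2 and SMAD3 to the activated TGF-beta receptor on endosomes, and Zfyve16, endofin, does so for SMADs of the BMP branch. Each has 1 probe set. Zfyve9 read 143 in Smad4 f/f, just under the floor of 145, and 44.8 in Smad4 −/−. Zfyve16 read 2.82 for Smad4 f/f and 101 for Smad4 −/−. Both pairs lie under the floor, so no direction is read for the anchors.

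The spread between probe sets of 1 gene gives a technical yardstick, which holds no spread between animals or arrays. Its pooled SD in log2 ratio was 0.48 over the 4252 genes that have several measured probe sets, and 0.31 over 1427 genes when restricted to probe sets with a mean log2 signal of at least 9. By probe sets of highest signal, the ratio of Skil, 1.78, lies well outside both, and those of Smurf1, Smurf2, Trim33 and Ppm1a lie inside both. Those of Ski and Tgif2 lie just outside the wider one. For Ppm1a, the −0.54 of 1451943_a_at lies outside both.

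The members were set beside 4 lists of other genes of the route, 81 measured genes in all. Of these, 1 was past 2-fold upward and 0 downward, with 13 ratios that are bounds because 1 array lay below the floor. That gene was Smad5, a SMAD of the BMP branch, at 2.53-fold (244 for Smad4 f/f and 616 for Smad4 −/−), while the mean log2 ratio of its 3 probe sets was 0.73, short of 2-fold. It stands among 21 measured ligands, receptors and SMADs with a median log2 ratio of −0.01. In that list 10 genes lay above 0 and 11 below. The activin receptor gene Acvr2a read 148 for Smad4 f/f and 259 for Smad4 −/−, a log2 ratio of 0.81. Acvr2b was at least 1.80-fold higher, its Smad4 f/f signal being below the floor. The latent TGF-beta binding protein gene Ltbp1, of highest signal in that list, read 24098 and 29629, a log2 ratio of 0.30. Smad4 itself is the deleted gene, and its 3 probe sets had log2 ratios from −0.13 to −0.09. Where they lie relative to the deleted exons was not analysed here, so they check nothing about the genotype.

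Among 16 measured corepressors and coactivators other than the members, 0 passed 2-fold by the probe set of highest signal, and the median log2 ratio was 0.05. By the mean of measured probe sets Ctbp2 passed, the single gene of the 4 lists to do so. This corepressor, named after its values were seen, read 651 for Smad4 f/f and 1152 for Smad4 −/− by one probe set (log2 ratio 0.82). The other probe set read 384 and 1581, for a log2 ratio of 2.04 and a mean of 1.43. Zeb1, a zinc finger repressor that binds SMADs, had a log2 ratio of 0.94 with probe sets that disagreed (mean 0.38). Sin3a, a scaffold for histone deacetylases, had one of −0.89, and Foxh1, a DNA-binding partner of SMAD2, one of −0.85. Ctbp1, which TGIF1 recruits, read 8376 for Smad4 f/f and 9659 for Smad4 −/−, for a log2 ratio of 0.21. The genes of this list thus went both ways, 9 above 0 and 7 below.

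By the probe set of highest signal, the 19 measured ubiquitin and SUMO ligases and deubiquitinases had the highest median of the 4 lists, 0.25. Here 13 were above 0 and 0 past 2-fold. Most of these genes had measured probe sets that disagreed in direction. By the mean of measured probe sets more genes lay below 0 than above it, so no upward lean is read from this list. Usp11, a deubiquitinase of the type I TGF-beta receptor, was at least 1.56-fold lower, its Smad4 −/− signal being below the floor. Pias1, a SUMO ligase, had a log2 ratio of 0.57 with probe sets that disagreed (mean 0.05), and Fbxw7 one of −0.53. Nedd4, a HECT ligase related to the Smurf proteins, read 5414 and 4303, a log2 ratio of −0.33, with probe sets that disagreed (mean −0.13).

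By the probe set of highest signal, the 25 measured phosphatases and anchors had the lowest median, −0.17, with 15 below 0 and 0 past 2-fold. By the mean of measured probe sets nearly as many lay above 0 as below. Vps39, an endosomal tethering protein, had a log2 ratio of 0.95. Ppp1ca, a catalytic subunit of protein phosphatase 1, read 14872 for Smad4 f/f and 9139 for Smad4 −/−, with a log2 ratio of −0.70, and Lemd3, an inner nuclear membrane protein that binds SMADs, had one of −0.63. Fkbp1a, which keeps type I receptors inactive, read 46064 and 31719, a log2 ratio of −0.54, and the mean over its 4 probe sets was also −0.54.

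**Figure D3:**
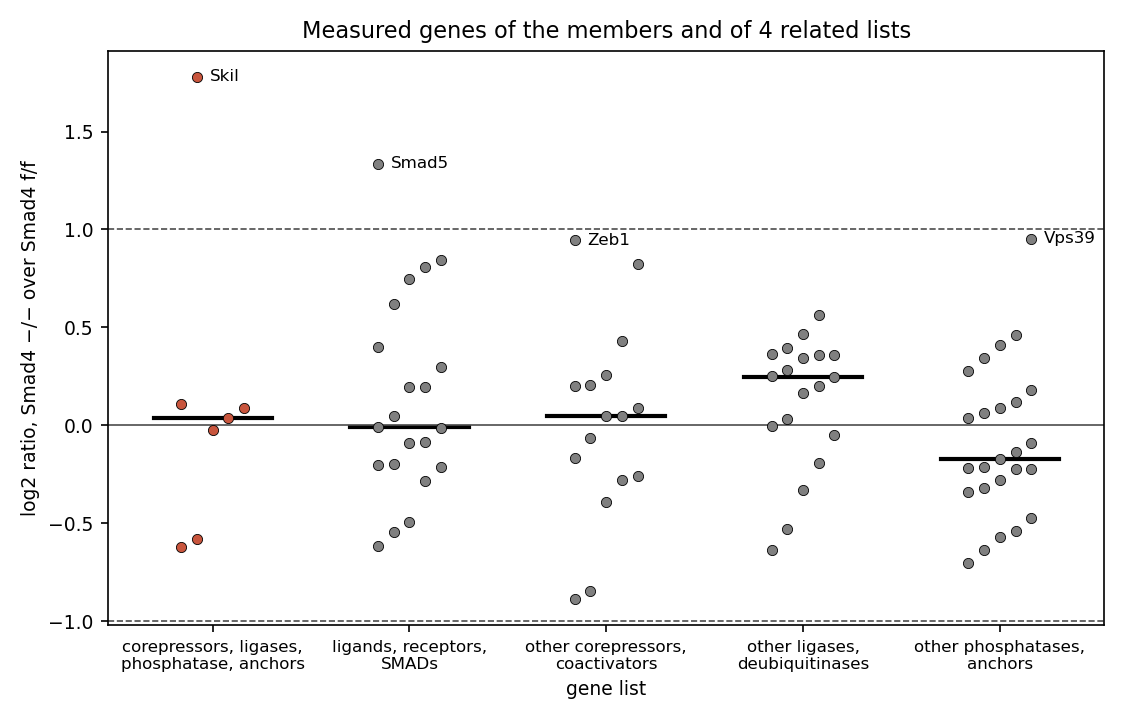
Log2 ratio of Smad4 −/− over Smad4 f/f (vertical axis) of each measured gene of the members (red) and of the 4 related lists (grey), 1 point a gene, with the list median as a bar and 2-fold as dashed lines. Skil (1.78) and Smad5 (1.34) are the genes outside the lines, and the list medians run from −0.17 to 0.25.

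Some markers of other cells differed between the arrays in the same direction as Skil and others in the opposite one. The part of these cells in the difference of Skil was not tested. Of 13 platelet and megakaryocyte markers on the array, 12 reached the floor on both arrays and were within 2-fold, with log2 ratios from −0.08 (Clec1b) to 0.43 (Treml1). The last, F2rl3, read 164 for Smad4 f/f but 76.8, under the floor, for Smad4 −/−. The list had a summed signal of 1160820 for Smad4 f/f and 1241060 for Smad4 −/−. Of 11 erythroid markers 8 were measured and 5 were at least 2-fold higher in Smad4 −/−, with Slc25a37 at 3.90-fold and Fech at 3.06-fold. Another 2 were lower, Tfrc by 1.52-fold and Klf1 by 1.24-fold, and Ermap was 1.13-fold higher. Hba-a1, Epb42 and Rhag lay below the floor on both arrays, and the summed signal was 8873 and 22741. T and NK cell markers summed to 7110 and 15691, with 1 of 8 measured past 2-fold (Cd28, 2.74-fold higher), and to 2425 and 2866 without Cd28. Cd3d read 356 and 181, 1.97-fold lower, with Cd3e, Cd3g and Cd4 below the floor on both. In the B cell, monocyte, neutrophil and endothelial lists 2 of 8, 1 of 6, 0 of 6 and 1 of 6 measured genes passed 2-fold upward and 0 downward. The monocyte gene, Csf1r, had probe sets that disagreed (mean log2 ratio 0.28), as had the endothelial gene, Flt1 (mean 1.61). The ratios of Flt1 and of the B cell gene Jchain are bounds, their Smad4 f/f signals being below the floor. Mpeg1 of the monocyte list was at least 1.93-fold lower, its Smad4 −/− signal being below the floor. The summed signals of these lists, in the same order, were 4801 and 5908, 140776 and 132718, 6146 and 7911, and 26703 and 35949. Lyz2 alone gave nearly all of the monocyte sum (139723 and 131259), and Esam most of the endothelial sum (22458 and 29173). Those sums therefore do not speak for the other genes of their lists. Below the floor on both arrays were Pax5 of the B cell list, Ccr2 and Cd14 of the monocyte list, Elane, Mpo and Camp of the neutrophil list, and Tek, Tie1, Emcn and Sox18 of the endothelial list. RNA integrity can be read from control probe sets at both ends of a transcript. Their 3' to 5' quotient was 1.86 for Gapdh on the Smad4 f/f array against 2.61 on the other, and 1.16 against 1.27 for beta-actin.

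Of 8 alternatives of scaling, floor and choice of probe set, the 3 scalings moved the log2 ratio of Skil, to between 1.76 and 1.87. The other 5 return its value unaltered by construction. The changes of floor and probe set kind keep its probe set of highest signal, and the mean is taken at the main floor, where Skil has 1 measured probe set. At the 50th percentile floor, a log2 signal of 6.70, the second Skil probe set would count as measured, at 7.00 for Smad4 f/f and below that floor for Smad4 −/−. With no floor it counts too. Over the 8, the ratio of Ski ran from −0.60 to −0.17 and that of Tgif2 from −0.62 to −0.53, the latter over the 7 alternatives in which it was measured. Smurf1 stayed between 0.04 and 0.13, whereas Smurf2 (−0.04 to 0.07), Trim33 (−0.07 to 0.20) and Ppm1a (−0.21 to 0.18) took either sign. In a further alternative, added after the data were seen, the floor was dropped and all probe sets of a gene were averaged, so that dark probe sets counted as much as bright ones. The log2 ratio of Skil then turned to −0.999 and that of Smurf1 to −0.44. That of Tgif2 became −1.11, past 2-fold, that of Trim33 0.93 and that of Ppm1a −0.65, while Ski and Smurf2, with no probe set under the floor, kept their probe set means of −0.17 and 0.01. No direction is given for Ski, Smurf1, Smurf2, Trim33 or Ppm1a.

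**Figure D4:**
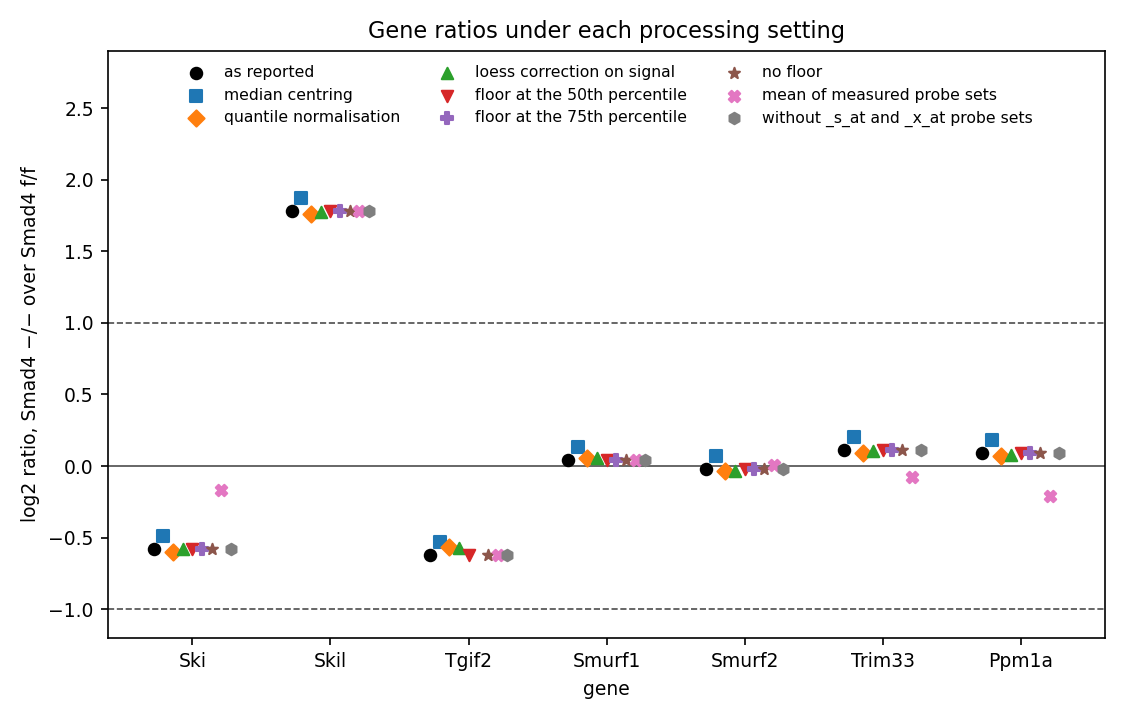
Log2 ratio of Smad4 −/− over Smad4 f/f (vertical axis) of the 7 measured members as reported (black circle) and under 8 alternatives (coloured symbols), with 2-fold as dashed lines. Skil lies between 1.76 and 1.87, moved by the 3 scalings alone, and the mean of measured probe sets moves Ski to −0.17 and Ppm1a to −0.21.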

How the data were processed

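The values are log2 signals deposited by the authors, 1 per probe set and array, made with MAS5 (no version stated) per the submitters' processing notes. Both arrays have a mean linear signal of 500.01 after trimming 2% at each end, read from the values, and median log2 signals of 6.70 and 6.61. Of 45037 probe sets that are not controls, 34945 have 1 gene symbol in the platform annotation, which can be old. Of these, 34741 matched a RefSeq table (GRCm38.p6) by Entrez ID, which set the symbols. The floor was reached by 40.0% of the 45037 in Smad4 f/f and 38.5% in Smad4 −/−. Detection calls were not used here.

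Signals were raised to the floor and subtracted. A gene took its probe set of highest mean log2 signal, and _x_at probe sets served only genes lacking any other kind. All 10 members are named. In each related list up to 3 genes of largest ratio and the one of highest signal are named, and Ctbp2 besides. In marker lists the counts, sums and some genes are given. Like signal means a mean log2 signal within 0.5. The members and lists were chosen with earlier results of these data known. The steps were tested on simulated data. Python 3.11.15, pandas 2.3.3, numpy 2.4.6 and statsmodels 0.14.6 were used.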

Additional observations from a re-analysis of the deposited data

How the results depend on the processing

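No paired analysis was possible because there is 1 array per genotype. The count of members at least 2-fold higher, 1, was the same under the other scalings, floors, probe set choices and thresholds run, except with no floor, where it was 2 of 10 genes. The count lower, 0, became 1 with no floor and 1 at 1.5-fold. By probe set, no floor gave 3 higher and 4 lower in place of 1 and 0, and 1.5-fold gave 1 lower. With no floor the members below it enter, with log2 ratios of −0.88 for Tgif1, −1.67 for Zfyve9 and 5.16 for Zfyve16. In an alternative added after the data were seen, no floor together with the mean of all probe sets, the log2 ratio of Skil was −0.999 and that of Tgif2 −1.11, since for each a probe set under the floor then counts as much as the measured one. The median over measured members ran from −0.07 to 0.13. Median centring moved the median of all probe sets that reached the floor on both arrays from −0.01 to 0.07. Signals under the floor, and 1 array per genotype, limit what can be read.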
